A study of Homo sapiens with 6 samples.

Results

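The genes described here are 48 nucleolar factors of ribosome biogenesis, taken by gene symbol from a list of proteins that transcribe, process and assemble ribosomal RNA. Each of the 48 symbols matched 1 of the 23698 gene rows, and all 48 passed the filter on low counts, as did 13668 genes in all. They were measured in MV4-11, an established acute myeloid leukaemia line known for an internal duplication in FLT3 and a fusion of MLL. In 3 libraries the cells had been stably transduced by lentivirus with a hairpin RNA that targets PRMT5, an enzyme that places symmetric dimethyl marks on arginine, and in 3 they carried a scrambled hairpin. Both groups therefore went through transduction. The labels give neither the hairpin sequence nor the time after transduction, and no protein level is part of the data used here. Poly(A) RNA was sequenced, and levels are CPM, the counts relative to library size, scaled with TMM factors unless stated.

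Ribosomes begin in the nucleolus, where RNA polymerase I copies the ribosomal DNA into one long precursor. Small nucleolar ribonucleoproteins (snoRNPs) modify and help cut that precursor, and separate sets of factors assemble the small and the large subunit around it. In proliferating cells, leukaemia lines included, the transcription factor MYC is known to drive many of these genes through the E-box, a short DNA element. The comparison asks how their mRNAs stood in PRMT5 knockdown cells against scrambled controls, and how they stood relative to MYC from library to library.

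Libraries held 16408484 to 19077106 estimated counts, so counting error is small for these genes, the least abundant of which, UTP15, had 5.51 CPM in its lowest library. Of 12 myeloid blast markers, 10 averaged over 1 CPM. Their summed level was 2199 to 3212 CPM in knockdown and 1956 to 2910 CPM in control libraries. No erythroid, T cell or fibroblast marker averaged 1 CPM, and HBA1, HBA2, HBB, CD3E, EPCAM, COL1A2 and COL3A1 held 0. In B cell and epithelial lists, 1 of 4 and 2 of 5 markers averaged over 1 CPM, with sums of at most 13.5 and 28.1 CPM in knockdown and at most 15.9 and 52.1 CPM in control libraries.

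PRMT5, the targeted gene on chromosome 14, stood at 103, 71.6 and 53.0 CPM in knockdown 1, 2 and 3. Controls 1 and 3 held 133 and 158 CPM. The library labelled control 2 held only 53.2 CPM, as low as the lowest knockdown library, so PRMT5 does not bear out its label. More than 2-fold below the mean of controls 1 and 3 in that library were 15.2% of all genes, PRMT5 among them. Whether the label is right was not tested. For PRMT5, knockdown minus control gave a log2 difference of −0.60 (SE 0.43), which did not pass edgeR's quasi-likelihood test (adjusted p = 0.926). Without the library labelled control 2 it was −0.94 (edgeR, unadjusted p = 0.0135, adjusted p = 0.99996). All 3 knockdown libraries lay below controls 1 and 3. Over all genes, log2 CPM of the library labelled control 2 correlated at 0.923 with control 1, its closest library, and 0.876 with control 3. With the knockdown libraries it correlated at 0.880 to 0.909, and all other pairs of libraries had 0.952 to 0.995. The main results are therefore also given without the library labelled control 2, or within pairs of libraries that carry the same number.

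In that test no member passed: 0 of 48 had an adjusted p under 0.05 after Benjamini-Hochberg adjustment over all genes, where 0% of the 13668 genes did. In bulk RNA, fewer cells with a transcript and less of it per cell cannot be told apart. No member had an unadjusted p under 0.05 either, against 0.571% of all genes on the higher and 1.2% on the lower side. DESeq2 and limma-voom also called 0 members and 0 genes. The adjusted p of the members was 0.926 to 0.999. The log2 difference lay above 0 for 44 of the 48, against 49.9% of all genes, with a median of 0.42 beside −0.00069 over all genes. Standard errors ran from 0.19 to 0.75, and their median of 0.45 was as large as the median difference. For no member did the 3 knockdown values all lie on one side of the 3 control values, while 3.14% of all genes were higher and 3.1% lower without overlap. Without the library labelled control 2 the median was 0.072 and 33 of 48 lay above 0, against 50.4% of genes tested there.

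**Figure D1:**
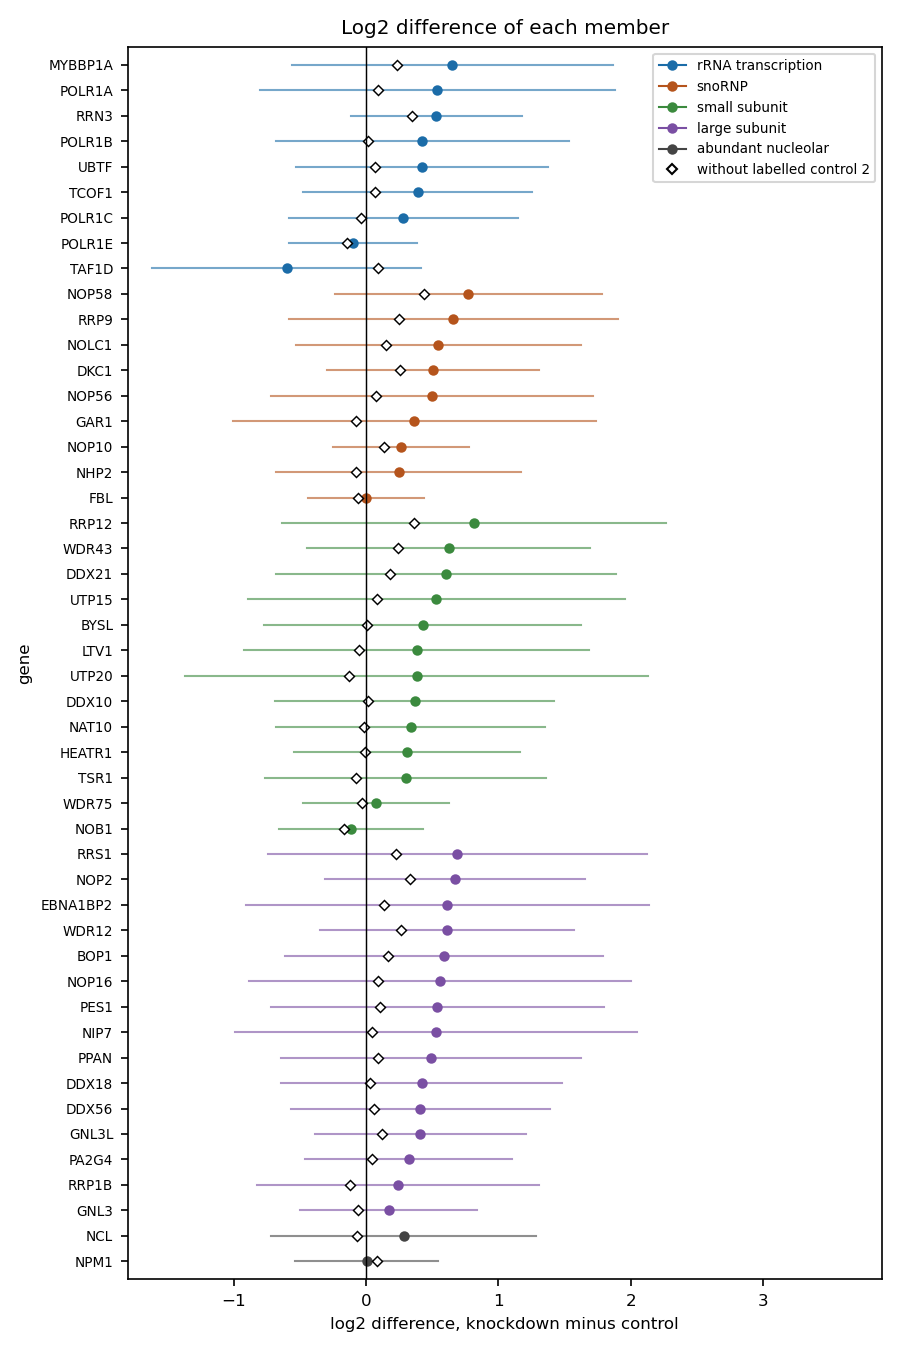
Log2 difference of knockdown minus control for each of the 48 members, by role. Filled points with lines are the fitted values with 95% confidence intervals (3 libraries a group), and open diamonds are the fit without the library labelled control 2. All intervals include 0, and the diamonds lie between −0.17 and 0.44.

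The values rest in large part on single libraries, above all on the library labelled control 2. The 48 genes together took 1.29%, 0.881% and 1.14% of the counts in knockdown 1 to 3. They took 0.953% and 1.19% in controls 1 and 3, and 0.423% in the library labelled control 2. Set against the mean of controls 1 and 3, that library was lower for 46 of the 48, and the median of these log2 differences was −1.55, beside −0.022 over all genes. It was more than 2-fold below for 38 members, where 15.2% of all genes were, and it was the lowest of the 6 libraries for 44, where 36.7% of all genes were. It was more than 2-fold above for 1 member and for 2066 of all genes, as against 2074 genes below. Summed markers of epithelial cells and fibroblasts were highest in that library, at 52.1 and 5.0 CPM. Those of erythroid and T cells were also highest, at 1.09 and 0.99 CPM. Those of myeloid blasts and B cells were lowest there, at 1956 and 6.55 CPM. The part of these markers in the difference was not tested. Knockdown 1 was the highest of the 6 libraries for 32 of 48 members, where 18.5% of all genes were. It was not far above the next libraries: centred on each gene's mean, the members' median was 0.56 in knockdown 1. It was 0.45 in control 3 and 0.39 in knockdown 3. Without knockdown 1 the members' median log2 difference was 0.31, with 42 above 0.

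**Figure D2:**
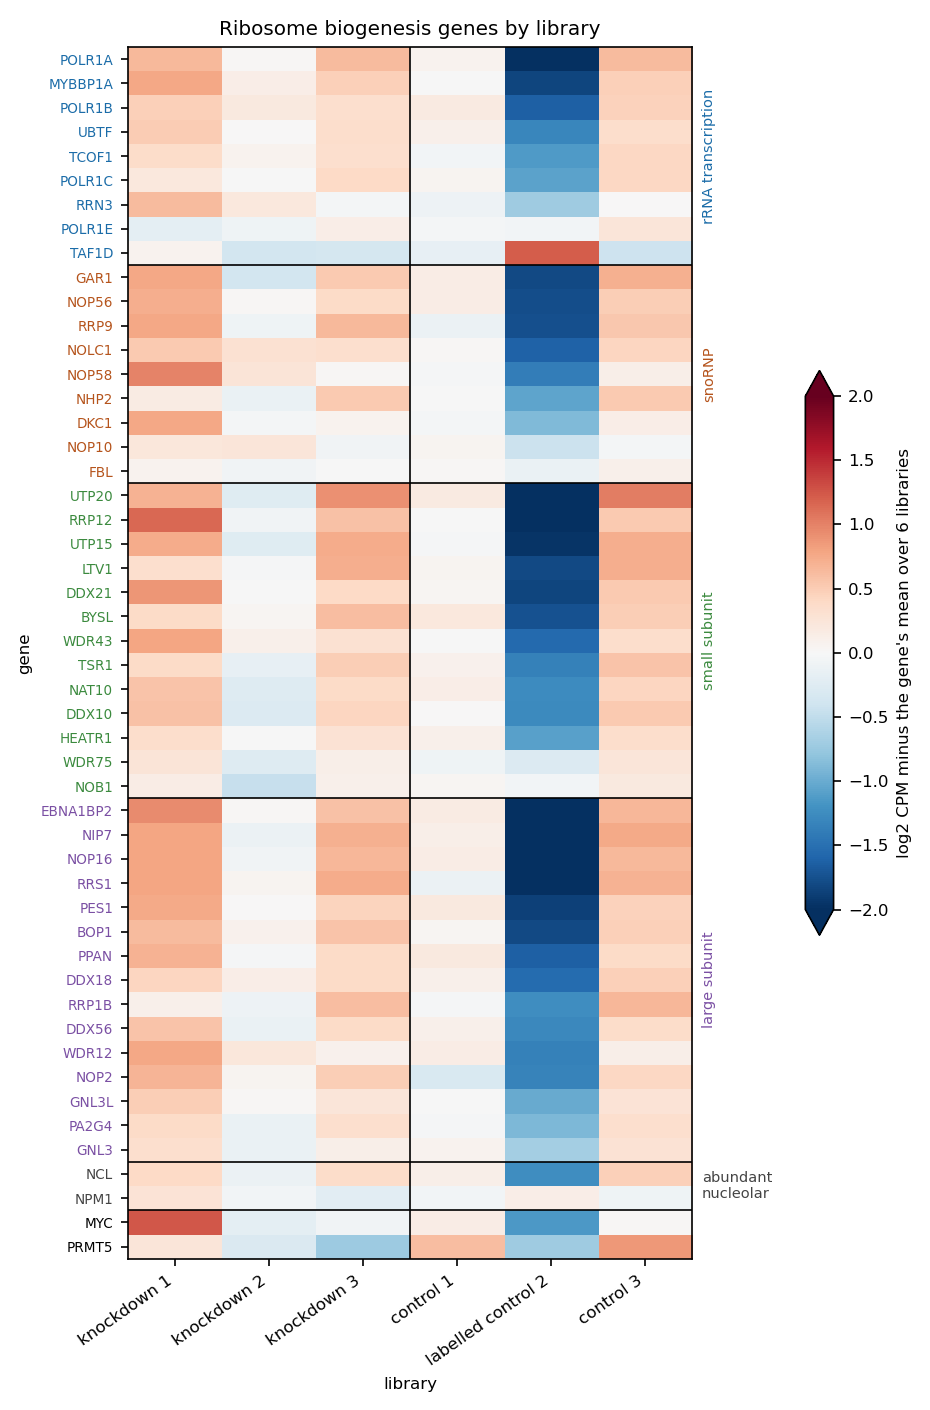
Log2 CPM of the 48 members, MYC and PRMT5 (rows) in the 6 libraries (columns), each gene centred on its mean over the libraries, with colours cut at 2 either way. Most members are lowest in the library labelled control 2, with TAF1D highest there and NPM1, POLR1E and NOB1 not lowest.

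Among factors of ribosomal DNA transcription, 7 of 9 members had a positive log2 difference (median 0.42) and none passed the test. Without the library labelled control 2 the count was again 7 and the median 0.070. RRN3, the initiation factor that recruits RNA polymerase I, had the smallest p of all 48 members. Its level was 160, 120 and 101 CPM in knockdown 1 to 3, against 96.2, 63.0 and 104 CPM in control 1, the library labelled control 2 and control 3. Knockdown 3 lay below control 3, so the groups overlapped. The log2 difference was 0.53 (SE 0.28; adjusted p = 0.926, edgeR), and 0.34 without the library labelled control 2. MYBBP1A, a nucleolar MYB-binding protein, had the largest difference in this set. It was at 277, 177 and 226 CPM in knockdown, against 161, 45.3 and 226 CPM in control libraries, a log2 difference of 0.65 (SE 0.52). Knockdown 3 and control 3 were at the same level, and the value was 0.23 without the library labelled control 2.

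The polymerase subunits themselves were not compared with each other by a test. POLR1A, the largest catalytic subunit, was at 162, 105 and 159 CPM in knockdown 1 to 3, against 108, 25.5 and 159 CPM in the controls (log2 difference 0.54, SE 0.57). POLR1B, the second-largest subunit, and POLR1C, which polymerase III shares, had log2 differences of 0.43 and 0.28. POLR1E, which encodes the PAF53 subunit, was nearly flat, at 41.1, 44.5 and 51.6 CPM in knockdown and 45.8, 45.4 and 55.5 CPM in control libraries, the library labelled control 2 included. Without that library POLR1A, POLR1B, POLR1C and POLR1E had 0.089, 0.019, −0.036 and −0.14. UBTF, which binds ribosomal DNA along its length, had a log2 difference of 0.42 (SE 0.41). TCOF1, the treacle protein that ties polymerase I transcription to rRNA modification, had one of 0.39 (SE 0.37).

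TAF1D, a subunit of the SL1 selectivity factor, had the most negative difference of the 48. It stood at 118, 86.9 and 87.7 CPM in knockdown 1 to 3 and at 99.5 and 84.0 CPM in controls 1 and 3. In the library labelled control 2 it was at 259 CPM, the highest of the 6. Its log2 difference was −0.60 (SE 0.44; adjusted p = 0.926, edgeR), and 0.089 without that library. TAF1D also has snoRNA genes inside it: rows of 8 of them held 299.6, 179 and 313 counts in knockdown 1 to 3 and 186, 496 and 323 counts in controls 1 to 3, the second from the library labelled control 2. The host row held 1431 to 2253 counts in the knockdown libraries and 1622 to 3999 counts in the controls. The use of strand and of overlapping features in the counting is not stated, so reads could be divided between TAF1D and these rows.

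Components of snoRNPs had 8 of 9 differences above 0 (median 0.50), again with none past the test. With the library labelled control 2 left out, 6 of 9 were above 0 and the median was 0.13. NOP58, a core protein of box C/D particles, which guide 2'-O-methylation, had the largest. It was at 348, 210 and 178 CPM in knockdown 1 to 3, against 172, 67.1 and 191 CPM in the controls. Knockdown 1 stood apart as the highest library and the library labelled control 2 as the lowest. The log2 difference was 0.78 (SE 0.43, 95% confidence interval −0.23 to 1.78), and 0.44 without the library labelled control 2, the largest value among the members in that setting. NOP56, its partner, was at 459, 283 and 360 CPM in knockdown and at 307, 81.4 and 392.1 CPM in control libraries (0.50, SE 0.52). Fibrillarin (FBL), the methyltransferase of the same particle, was nearly flat. Its values were 359, 327 and 341 CPM in knockdown and 348, 313 and 368 CPM in control libraries, a log2 difference of −0.0022 (95% confidence interval −0.44 to 0.44) whose sign turned under upper quartile scaling and total counts.

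Dyskerin (DKC1), the pseudouridine synthase of box H/ACA particles, was at 361, 206 and 223 CPM in knockdown 1 to 3, against 207, 115 and 234 CPM in the controls. Only knockdown 1 lay clear of the other libraries above. The log2 difference was 0.51 (SE 0.34). The small H/ACA proteins had lower values: 0.37 for GAR1, 0.26 for NOP10 and 0.25 for NHP2. NHP2 was at 73.2, 59.7 and 93.9 CPM in knockdown and 65.0, 31.5 and 94.2 CPM in control libraries. RRP9, a U3 snoRNP protein, and NOLC1, a snoRNP chaperone of the nucleolus and Cajal body, had log2 differences of 0.66 (SE 0.53) and 0.55 (SE 0.46).

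For the small subunit, 12 of 13 differences were above 0 (median 0.38), but only 6 of 13 when the library labelled control 2 was left out (median −0.0090). RRP12, which acts in pre-40S maturation and export, had the largest of all 48. Its level was 241, 104 and 162 CPM in knockdown 1 to 3, against 108, 24.1 and 156 CPM in the controls. Knockdown 1 was highest, and knockdown 2 was below both control 1 and control 3. The log2 difference was 0.82 (SE 0.62, 95% confidence interval −0.64 to 2.27), and 0.36 without the library labelled control 2. WDR43, a processome protein linked to polymerase I transcription, had the smallest p in this set, at 255, 160 and 184 CPM in knockdown and 148, 50.6 and 189 CPM in control libraries (0.62, SE 0.46). The helicase DDX21 was among the most abundant members, at 1484, 799 and 1065 CPM in knockdown and 824, 226 and 1150 CPM in control libraries (0.61, SE 0.55).

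UTP20, a large processome protein, showed the widest spread. It held 150, 78.5 and 174 CPM in knockdown 1 to 3, against 105, 15.5 and 188 CPM in the controls. The library labelled control 2 was 3.17 log2 units below the mean of controls 1 and 3. UTP20 had a log2 difference of 0.38 (SE 0.75), and −0.13 without that library. UTP15, HEATR1, BYSL, LTV1, DDX10, NAT10 and TSR1 had log2 differences of 0.53, 0.31, 0.43, 0.39, 0.37, 0.34 and 0.30. NAT10 is the 18S rRNA cytidine acetyltransferase and the others are processome or pre-40S factors. NOB1, the nuclease that makes the 3' end of 18S rRNA, was at 83.8, 54.9 and 81.4 CPM in knockdown and at 78.0, 73.0 and 86.9 CPM in control libraries (−0.11, SE 0.23). WDR75 was nearly as even, at 66.7 to 95.4 CPM in knockdown and 66.4 to 94.6 CPM in control libraries (0.077, SE 0.24).

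All 15 large-subunit members had a difference above 0 (median 0.53), and none passed the test. Leaving out the library labelled control 2 brought this to 13 of 15, with a median of 0.091. NOP2, which methylates 28S rRNA, was at 205, 133 and 180 CPM in knockdown 1 to 3, against 104, 50.9 and 171 CPM in the controls. Knockdown 1 and 3 were above every control library, and knockdown 2 was below control 3. The log2 difference was 0.67 (SE 0.42), and 0.34 without the library labelled control 2. RRS1, which helps bring 5S rRNA into the large subunit, had the largest value of the set. It was at 110, 65.7 and 106 CPM in knockdown and 58.3, 14.1 and 102 CPM in control libraries (0.69, SE 0.61). PES1, BOP1 and WDR12 form the PeBoW complex of the pre-60S particle, and their log2 differences were 0.54, 0.59 and 0.61. WDR12 was at 146, 99.5 and 90.9 CPM in knockdown and 94.5, 33.3 and 92.2 CPM in control libraries, with knockdown 3 just below controls 1 and 3. BOP1 was at 321, 219 and 308 CPM in knockdown and 214, 59.6 and 290 CPM in control libraries.

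The other large-subunit members ran from 0.17 for GNL3, the nucleostemin GTPase, to 0.62 for EBNA1BP2, whose yeast counterpart acts in 60S assembly. GNL3 was at 280, 203 and 241 CPM in knockdown and 234, 139 and 270 CPM in control libraries, and its value was −0.061 without the library labelled control 2. NOP16, NIP7, PPAN, DDX18, DDX56, GNL3L, PA2G4 and RRP1B had log2 differences of 0.56, 0.53, 0.49, 0.42, 0.41, 0.41, 0.32 and 0.24. RRP1B, a nucleolar protein of the pre-60S pathway, was at 96.9, 84.7 and 138 CPM in knockdown and 88.6, 38.1 and 144 CPM in control libraries. PPAN is uncertain, because the row of the PPAN-P2RY11 read-through gene held 2195 to 3995 counts in knockdown and 874 to 3063 counts in control libraries. That is more than the 1383 to 2646 and 428 to 2167 counts of PPAN itself.

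Nucleolin and nucleophosmin, abundant structural proteins and chaperones of the nucleolus, form the last set (median 0.15, and 0.0066 without the library labelled control 2). Nucleolin (NCL) was at 1784, 1256 and 1762 CPM in knockdown 1 to 3, against 1480, 574 and 1883 CPM in the controls (0.29, SE 0.43). Nucleophosmin (NPM1) was at 1481, 1179 and 1061 CPM in knockdown, against 1186, 1354 and 1162 CPM in the controls (0.0078, SE 0.23), a sign that turned under limma-voom. NCL was lowest in the library labelled control 2, and NPM1 was there the second highest of the 6. Per kilobase of transcript, NPM1 had the highest mean level over all libraries at 799 CPM per kilobase. NCL, FBL and DDX21 followed at 361, 295 and 196, and UTP15 was lowest at 6.91. NPM1 has many processed pseudogenes, and how reads shared with them were credited is not stated.

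**Figure D3:**
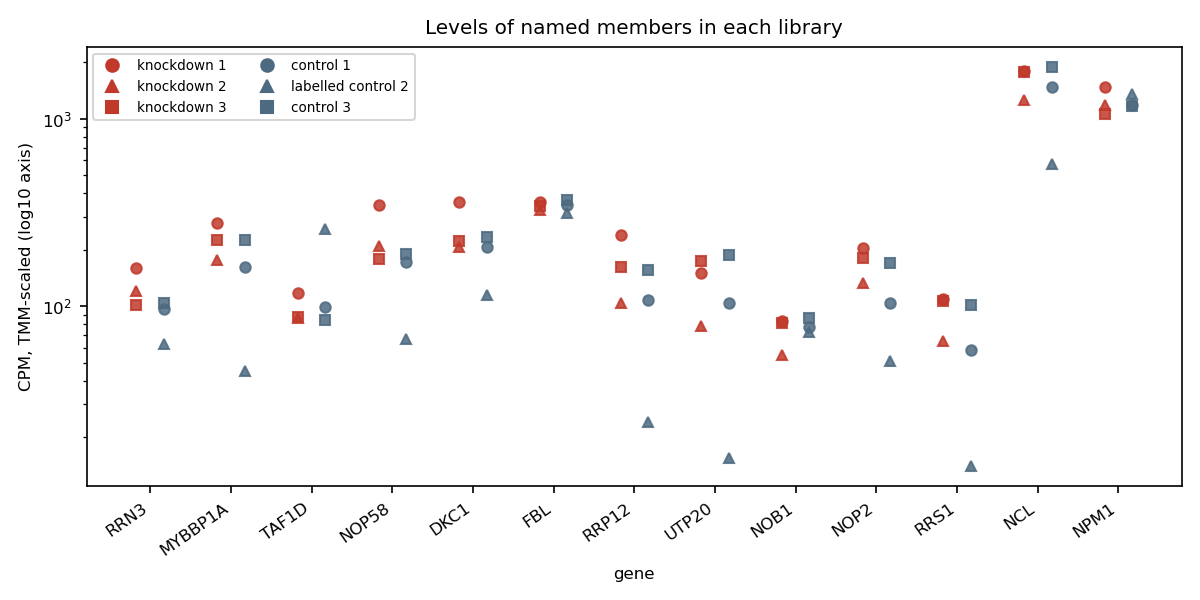
CPM (TMM-scaled, log10 axis) of 13 members in each library, knockdown at the left and control at the right of each gene, marker shape giving the replicate number. The blue triangle, the library labelled control 2, is far below the other points for RRP12, UTP20 and RRS1, above them for TAF1D, only just below them for FBL and among them for NPM1.

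Libraries with the same number were set side by side, though the labels do not call them pairs. Over all genes, deviations from the group means correlated at 0.394 in pair 2 and 0.566 in pair 3. In pair 1 they correlated at only 0.127, below the 0.164 of knockdown 2 with control 1, so that pairing is weakly borne out. In pair 1, 47 of 48 members were higher in the knockdown library (49.6% of all genes), with a median log2 difference of 0.49 and a range of −0.15 for POLR1E to 1.16 for RRP12. In pair 2, which holds the library labelled control 2, 44 were higher (52.1% of all genes), with a median of 1.41 and a range of −1.58 for TAF1D to 2.38 for EBNA1BP2. More than 2-fold higher in the knockdown library were 2 members in pair 1 and 35 in pair 2, where 1.76% and 15.1% of all genes were. In pair 3, 14 of 48 were higher (49.6% of all genes), the median was −0.044, and the range was −0.19 for GAR1 to 0.13 for BYSL. That pair had the lowest relative PRMT5 level: pairs 1, 2 and 3 had log2 differences of −0.36, 0.43 and −1.58 for PRMT5. Over all genes, knockdown 3 and control 3 correlated at 0.995 in log2 CPM, the highest of all pairs of libraries, against 0.969 in pair 1 and 0.909 in pair 2. Knockdown 2 correlated more closely with control 1, at 0.976, than with the library of its own number. In pair 3, 0 members and 0.527% of all genes were more than 2-fold higher in the knockdown library.

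**Figure D4:**
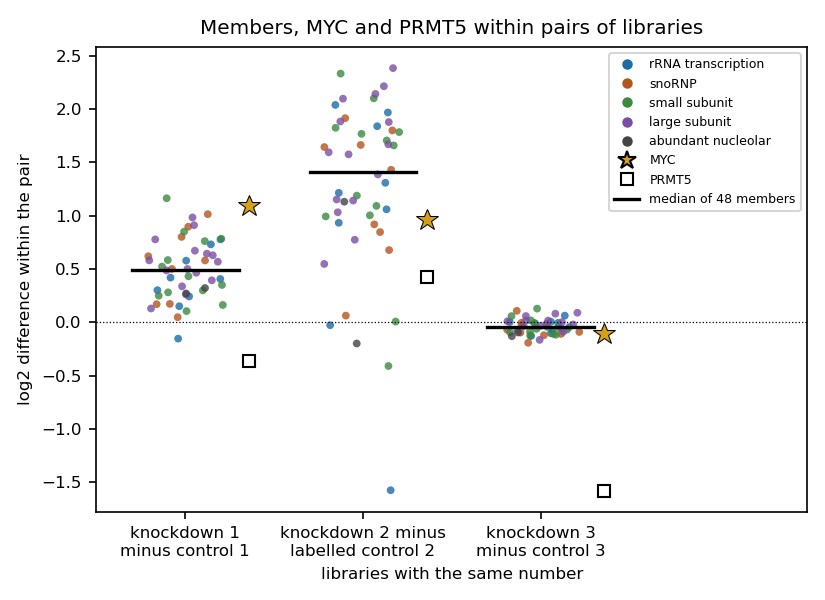
Log2 difference of knockdown minus control within each pair of same-numbered libraries for the 48 members (points, coloured by role), with their median (black line), MYC (star) and PRMT5 (square). In pair 3 the members lie between −0.19 and 0.13 while PRMT5 is at −1.58. In pairs 1 and 2 most members are above 0.

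Differences above 0 in all 3 pairs were found for 13 members, against 14.6% of all genes. They were the large-subunit factors NOP2, NOP16, RRS1, BOP1, PPAN, DDX56 and PA2G4, with RRP12, UTP15, BYSL, RRP9, MYBBP1A and POLR1A. In pair 3 their values were small, the highest being 0.13 for BYSL and 0.11 for RRP9. Without both libraries numbered 2, the median over the 48 members was 0.19 and 46 were above 0, against 49.5% of genes tested there, with 0 past the test and 0 at an unadjusted p under 0.05. Members whose groups no longer overlapped then numbered 12, all higher in knockdown, and they were the 13 without BYSL. Of the genes tested there 19.7% did not overlap, a share that counts both directions, as do the shares that follow. Leaving out knockdown 2 alone gave the same 12 (13.7% of all genes). Leaving out control 3 gave 13, among them NOP58, RRN3, NOP2 and WDR43 (26.7%), and leaving out knockdown 3 gave NOP10, NOP58, RRN3 and WDR12 higher and POLR1E lower (21.3%). Leaving out knockdown 1, control 1 or the library labelled control 2 gave 0, against 9.98%, 13.7% and 10.3% of all genes.

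MYC itself, on chromosome 8, was at 1491, 556 and 600.4 CPM in knockdown 1 to 3, against 702, 285 and 647 CPM in the controls. Knockdown 1 was more than 2-fold above any other library, and the library labelled control 2 was lowest. The log2 difference was 0.70 (SE 0.49; adjusted p = 0.926, edgeR), 0.39 without the library labelled control 2 and 0.085 without knockdown 1. Within pairs 1 to 3 it was 1.09, 0.96 and −0.11, beside member medians of 0.49, 1.41 and −0.044. Centred on each gene's mean, the members' median by library was 0.56, −0.026 and 0.39 in knockdown 1 to 3, and 0.046, −1.35 and 0.45 in the controls.

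Across the 6 libraries Pearson's r with MYC in log2 CPM had a median of 0.80 over the 48 members, beside 0.021 over 13667 genes. It was above 0.8 for 26 members, where 10.5% of all genes were. DKC1 had the highest value, r = 0.97 (p = 0.0375 by exact permutation of the 720 pairings, two-sided), with Spearman's rho of 0.83 (exact p = 0.0583). NOP58, RRN3 and WDR12 followed, with r of 0.94, 0.92 and 0.92. TAF1D and POLR1E were the 2 members with a negative r, −0.53 and −0.29, and NPM1 and NOB1 had 0.29 and 0.36. An unadjusted exact p under 0.05 with a positive r was reached by 11 members, against 5.63% of all genes. For rho no member reached it, against 2.22% of all genes. No member passed after adjustment over the 13667 relations, where 0% of genes did, and the smallest adjusted p of a member was 0.372 for r and 0.622 for rho.

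The high values of r rest on 2 libraries. Knockdown 1 and the library labelled control 2 were farthest from the median of MYC, and without them the median r over the members was 0.15, with 34 of 48 above 0 (51.4% of all genes). For DKC1 it was 0.13, for NOP58 −0.78 and for RRN3 −0.86, over 4 libraries each. These 4 libraries held MYC at only 556 to 702 CPM, so r over them cannot tell a missing relation from a narrow range. Groups of 3 libraries are too small for a correlation within each.

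**Figure D5:**
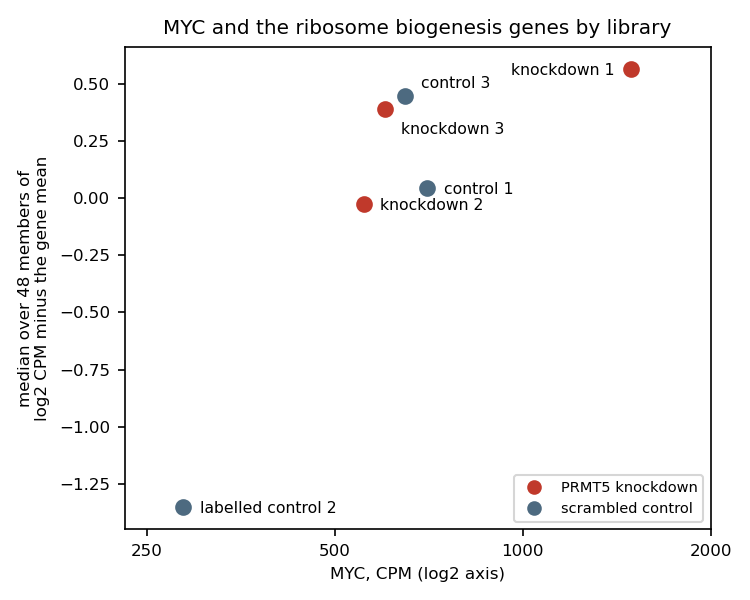
MYC level (CPM, log2 axis) against the median over the 48 members of log2 CPM minus the gene mean, 1 point a library. The library labelled control 2 is lowest and knockdown 1 highest on both axes, and the other 4 lie between 556 and 702 CPM of MYC with medians of −0.026 to 0.45 in no common order.

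Promoters were compared because MYC binds the E-box, CACGTG, which reads the same on both strands. RefSeq windows of 250 bases before to 50 after a start (GRCh38.p14) were matched by symbol for 39 of the 48 members. The E-box letters were found for 15 of those 39 (38.5%), against 8.78% of 27305 genes with such a window, whether or not they were tested in these libraries. In 6 members it lay within the last 50 bases before the start and the first 10 after it. Those windows follow, 5′ to 3′ on the gene's strand with the E-box in capitals, together with that of TAF1D, the member highest in the library labelled control 2, which has no such letters.
WDR43, chr2:28894617-28894676, plus strand: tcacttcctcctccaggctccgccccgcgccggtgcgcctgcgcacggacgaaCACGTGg
RRP9, chr3:51941895-51941954, minus strand: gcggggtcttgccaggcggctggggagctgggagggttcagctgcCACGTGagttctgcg
DDX21, chr10:68956597-68956656, plus strand: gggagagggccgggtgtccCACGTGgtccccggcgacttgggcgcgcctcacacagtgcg
NAT10, chr11:34105579-34105638, plus strand: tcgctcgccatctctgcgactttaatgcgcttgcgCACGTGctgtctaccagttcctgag
UTP20, chr12:101280055-101280114, plus strand: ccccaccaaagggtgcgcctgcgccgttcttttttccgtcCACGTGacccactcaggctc
NOP10, chr15:34343127-34343186, minus strand: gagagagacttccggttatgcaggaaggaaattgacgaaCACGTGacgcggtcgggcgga
TAF1D, chr11:93741486-93741545, minus strand: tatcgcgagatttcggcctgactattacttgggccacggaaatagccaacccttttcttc

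Members with and without these letters are set side by side, with no test. The median log2 difference was 0.43 in the 15 with an E-box and 0.41 in the other 24. Their median r with MYC was 0.83 and 0.80. In the library labelled control 2, relative to controls 1 and 3, the medians were −2.07 and −1.50. The letters CCGGAAGT, an ETS-type element searched on both strands, were in 11 of the 39 windows' genes (28.2%) and in 4.95% of the same 27305 genes. Members with and without them had median log2 differences of 0.41 and 0.40. These matches describe the letters in the windows only.

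By GENCODE annotation, 9 members carry snoRNA genes inside them on the same strand: NCL, NOP56, NOP58, DKC1, GNL3, PPAN, WDR43, TSR1 and TAF1D. Their median log2 difference was 0.49, beside 0.42 for the other 39. The snoRNA rows summed to at most 4.50% of the host row in any library for these genes other than TAF1D, where it reached 19.9%.

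A further list of 125 ribosome biogenesis genes outside the 48 was measured in the same fit, and all 125 were tested. None passed, where 0% of all genes did. None had an unadjusted p under 0.05, against 0.571% of all genes on the higher and 1.2% on the lower side. A difference above 0 was found for 106, against 49.9% of all genes, with a median of 0.25. Without the library labelled control 2 the median was 2.06e-05 and 63 were above 0, against 50.4% of genes tested there. The library labelled control 2 was more than 2-fold below controls 1 and 3 for 55 of the 125, where 15.2% of all genes were. Pearson's r with MYC had a median of 0.74 over the 125 and was above 0.8 for 47, against 10.5% of all genes. None passed after adjustment, where 0% of all genes did. Without the 2 libraries farthest from the median of MYC, the median r was 0.14. EXOSC1, an exosome subunit, had the smallest p, at 39.8, 30.6 and 27.0 CPM in knockdown and 24.9, 21.9 and 23.0 CPM in control libraries. Its groups did not overlap. That held for 2 of the 125 on the higher and 0 on the lower side, against 3.14% and 3.1% of all genes. The log2 difference of EXOSC1 was 0.48 (SE 0.23; adjusted p = 0.926, edgeR), 0.44 without the library labelled control 2. EXOSC5 and UTP3 followed among genes above 0, with 0.66 and 0.41. BAZ2A, the TIP5 subunit of the nucleolar remodelling complex, had −1.04 (SE 0.50), and POLR1D and GLTSCR2 had −0.50 and −0.45. All 3 were highest in the library labelled control 2, like TAF1D, with BAZ2A at 178, 217 and 207 CPM in knockdown and at 237, 791 and 212 CPM in control libraries. Without that library BAZ2A, POLR1D and GLTSCR2 had −0.16, −0.10 and 0.068.

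Among 9819 other genes averaging 5 CPM or more, those closest to the mean pattern of the 48 over the 6 libraries were XRN2, PMVK, EIF5A, MRPL24 and AGMAT, each with r above 0.999 as a description. Within the list, TAF1D ran against that pattern, with r of −0.87. NPM1, POLR1E and NOB1 followed it little, with r of −0.26, 0.21 and 0.35.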

How the data were processed

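Poly(A) RNA-seq of 3 knockdown and 3 control libraries was analysed from the tables the authors deposited, 1 per library, which hold estimated counts per gene, with totals that differ between libraries. CASAVA 1.9, TopHat2 (version 2), edgeR and the hg19 build are named, per the submitters' processing notes, without saying which did what. How genes were counted, with which annotation and whether by strand, is not stated in the labels. Values were rounded to whole numbers. Genes kept by filterByExpr (minimum count 10) were compared in edgeR 4.0.16 under R 4.3.3 (TMM, glmQLFit, glmQLFTest, group as the only term, two-sided, Benjamini-Hochberg, threshold 0.05); the prior count for log2 CPM was 2. With 3 against 3 libraries no exact permutation gives a p under 0.1, so single genes were not tested that way. Correlations with MYC used exact permutation of all pairings, for every tested gene.

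Nothing in the labels says that replicates were separate cultures, so p-values here reflect the spread of these samples alone, and it may be technical. Titles number the libraries 1 to 3 in both groups. Deviations from the group means over all genes correlated at 0.127, 0.394 and 0.566 between same-numbered libraries, each above 0.1, so these were treated as pairs; knockdown 2 with control 1 had 0.164.

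Members and gene lists were chosen with earlier results of these data known. Values in full were given, within each role, for members with the lowest p, the largest and smallest difference and the highest and lowest r with MYC, plus a few chosen after their values were seen. Transcript lengths were medians of the principal transcripts in GENCODE v29, matched by symbol for all 48. Coordinates and sequences are from RefSeq on GRCh38.p14, another build than hg19, and were used for promoter windows only. The fits were tested on simulated data. Alternatives were other scalings, count filters, DESeq2 1.42.0, limma-voom (limma 3.58.1), a replicate block, prior counts, and each library left out in turn.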

Additional observations from a re-analysis of the deposited data

How the results depend on the processing

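No member was called under any scaling, filter, tool or left-out library. With replicate number as a block the members' median log2 difference was 0.62, 43 of 48 were above 0, 5 had an unadjusted p under 0.05, as did 436 of 13668 genes, and the lowest adjusted p was 0.709 (edgeR), so the pairing changed no call. Leaving out each library in turn gave member medians of 0.072 (without the library labelled control 2) to 0.81 (without control 3), with 33 to 46 above 0. For MYC the range was 0.085 to 0.94, for PRMT5 −0.94 to −0.29, and for the other ribosome biogenesis genes 2.06e-05 to 0.54, with 63 to 114 above 0. Members whose groups did not overlap in either direction numbered 0 to 13: 12 without knockdown 2, 5 without knockdown 3, 13 without control 3 and 12 without both libraries numbered 2. The shares of all genes in these settings were 13.7%, 21.3%, 26.7% and 19.7%. The median r with MYC was 0.54 to 0.93 with each library left out, 0.43 without both libraries numbered 2 and 0.15 without the 2 libraries farthest from the median of MYC.

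Signs turned for 17 members, at values near 0 or on leaving out 1 library. FBL turned to 0.015 under upper quartile scaling, 0.036 under total counts, 0.0026 with no filter and 0.00069 under limma-voom. NPM1 turned to −0.0034 under the replicate block and −0.0052 under limma-voom. Without both libraries numbered 2, TAF1D had 0.16 and NOB1 0.0022. Over single left-out libraries the log2 difference ran from −0.15 to 0.11 for NPM1, −0.061 to 0.054 for FBL, −0.19 to 0.0078 for POLR1E, −0.22 to 0.061 for NOB1 and −0.040 to 0.23 for WDR75. The lowest value came without the library labelled control 2, and the highest without control 3, for 12 of the 17, FBL included. For the other 11 the ranges were −0.069 to 0.64 for NCL, −0.072 to 0.65 for NHP2, −0.072 to 0.90 for GAR1 and −0.036 to 0.61 for POLR1C. They were −0.12 to 0.75 for RRP1B, −0.061 to 0.37 for GNL3, −0.13 to 1.16 for UTP20 and −0.0090 to 0.59 for HEATR1. LTV1, TSR1 and NAT10 had −0.052 to 0.97, −0.076 to 0.73 and −0.017 to 0.68. TAF1D ran from −0.88 without control 3 to 0.089 without the library labelled control 2. The cause was not tested.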
